A study of Mus musculus with 4 samples.

Results

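The connective tissue spots of uninjured muscle were the spots of a tibial muscle section whose RNA was richest in 6 marker genes, Pi16, Col14a1, Col3a1, Cilp, Postn and Ccdc80. They were chosen in the HO-day 0 section by their measured values. Among the 2090 spots with 2000 or more unique molecular identifier (UMI) counts, of 2107 spots over tissue, the UMIs of the 6 genes were divided by the UMI total of each spot, and the 209 spots at or above the 90th percentile of this score were taken. The other 1881 spots of the section are the comparison, and the 4 sections of the series hold 10835 spots in all.

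The study followed heterotopic ossification (HO), the formation of bone in soft tissue, after muscle injury. Its spatial part consists of 1 section each of tibial muscle before injury (HO-day 0) and 1, 3 and 7 days after cardiotoxin, a snake venom toxin that destroys myofibres. RNA was captured on spots of an array, each of which can hold several cells or part of a cell, so that a spot is a small region and not a cell. All 4 groups came from Nse-Bmp4 mice of the C57BL/6 strain, aged 6 to 8 weeks, which carry a Bmp4 transgene under the rat neuron-specific enolase promoter, and no wild-type section is among the spatial samples. HO-day 0 carries the transgene too and differs from the other groups in having had no injury. The labels say that 3 tibial muscles were mixed for a group, and how that applies to a single section was not settled. With 1 section per day there was no replicate, so no test was run, and every interval given is a 95% counting interval that covers counting error only.

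Muscle connective tissue surrounds each myofibre, each bundle of fibres and the whole muscle. Its fibroblasts secrete procollagens, which are trimmed outside the cell, assembled into fibrils with small proteoglycans and cross-linked by lysyl oxidases. The same layers carry the larger vessels, nerves, resident macrophages, mast cells and fat, and fibroblasts that express Pi16 and Dpp4 are known from the adventitia around vessels and from fascia. Mesenchymal cells of this compartment are regarded as a source of heterotopic bone.

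The 6 markers differ in role. Col3a1 encodes the chain of the fibrillar collagen III, Col14a1 a fibril-associated collagen, Postn the matricellular protein periostin, Cilp a secreted cartilage intermediate layer protein, Ccdc80 a secreted matrix-binding protein and Pi16 a membrane-attached protein of adventitial fibroblasts. RefSeq promoter windows (mouse build GRCm38.p6, 120 bases before to 30 after the annotated start, all on the + strand) were listed for 4 of them, and are shown because these are the genes that chose the spots. Capitals mark TATAA beginning 20 to 40 bases before the start on the sense strand, or CCAAT on either strand (ATTGG when read on the other strand). Postn has 2 listed windows, and the second is shown. The windows of Pi16 (chr17:29318762-29318911), Col3a1 (chr1:45311418-45311567), Cilp (chr9:65265060-65265209) and Postn (chr3:54360987-54361136) read as follows.
Pi16: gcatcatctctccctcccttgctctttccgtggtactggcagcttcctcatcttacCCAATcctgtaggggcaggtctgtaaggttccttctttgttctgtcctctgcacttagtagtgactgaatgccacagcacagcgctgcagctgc
Col3a1: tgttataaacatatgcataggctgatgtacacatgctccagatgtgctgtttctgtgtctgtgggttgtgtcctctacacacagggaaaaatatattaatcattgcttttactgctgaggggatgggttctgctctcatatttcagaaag
Cilp: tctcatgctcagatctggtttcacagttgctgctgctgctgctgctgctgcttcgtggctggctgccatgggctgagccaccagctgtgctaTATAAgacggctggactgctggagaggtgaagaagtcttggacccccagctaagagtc
Postn: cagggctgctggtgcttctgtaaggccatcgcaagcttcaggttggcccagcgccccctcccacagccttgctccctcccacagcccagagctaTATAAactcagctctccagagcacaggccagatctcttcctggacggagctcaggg
Cilp has TATAA 28 bases and Postn 26 bases before the start, Pi16 has CCAAT 64 bases before it, the first Postn window has no TATAA by this rule but ATTGG 24 bases after its start, and the Col3a1 window holds neither by this rule. Of 9278 measured genes, 585 (6.31%) had a ratio of 2 or more in the connective tissue spots over the other spots. Of these, 426 had a listed window, and 22 (5.16%) held TATAA against 205 of 7418 measured genes (2.76%) and 1141 of all 27025 listed genes (4.22%). CCAAT was in 41.1%, 42.3% and 41.1% of the same groups. These matches describe letters in the windows and nothing about the factors that bind them.

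The members were about as deep as the rest of the section. Their UMI totals ran from 2429 to 52106 with a median of 22138, against a median of 21005 in the other spots, and they had a median of 4089 detected genes against 3692. Mitochondrial transcripts made up 12.1% of member UMIs and 13.7% of the others'. Of the 4078 barcodes seen in any section, 1341 occurred in all 4, as array positions repeat from slide to slide.

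The score describes how the spots were chosen. Given as counts per 1000000 UMIs of the spot (CPM), it ran from 5470 to 39909 in the members with a median of 7396, and from 168 to 5447 in the other spots with a median of 1897. The lowest member stood at 5470 and the highest spot left out at 5447, so that the score has no gap at the threshold. Col3a1 carried 86.3% of the marker UMIs of the members and over 50% of them in 208 of the 209 spots. When the score was recomputed without Col3a1, 117 of the 209 members (56.0%) were chosen again. All 6 markers were detected in 96 members (45.9%) and in 250 other spots (13.3%).

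Col3a1 was present throughout the members and the other 5 markers were patchy. For Col3a1 the lowest member had 2536 CPM, the median member 6235 and the highest 32208, against a median of 1614 and a highest value of 5051 in the other spots. The 2 groups of spots overlapped for Col3a1 between 2536 and 5051. Summed over spots, Col3a1 stood at 7649 CPM in the members and 1814 in the others, a ratio of 4.22 (4.16 to 4.27).

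Pi16 was at 0 in 65 of the 209 members, had a median of 88.0 CPM and a highest value of 3147, and its summed level was 222 CPM against 56.2 CPM, a ratio of 3.95 (3.66 to 4.26). Col14a1 was at 0 in 37 members with a median of 111, and its ratio was 4.33 (3.93 to 4.76). Both were thus found in most members and absent from the counts of many. Cilp had the smallest ratio of the 6, 2.74 (2.55 to 2.95), with 69 members at 0, and 25.8% of the other spots reached the median member, 79.1 CPM. Postn was at 0 in 18 members with a median of 250 and a ratio of 4.76 (4.46 to 5.08), and Ccdc80 at 0 in 21 with a median of 247 and a ratio of 4.10 (3.84 to 4.37). At an equal depth of 2000 UMIs per spot, the expected share of members with at least 1 UMI was 26.9% for Pi16, 24.6% for Col14a1, 23.5% for Cilp, 42.1% for Postn and 41.9% for Ccdc80, against 9.81%, 6.25%, 11.2%, 12.2% and 14.0% of the other spots. At full depth the member shares were 68.9%, 82.3%, 67.0%, 91.4% and 89.95%.

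Over all 2090 spots, the marker levels varied together only loosely. Spearman's rho between pairs of markers lay between 0.240, for Pi16 with Cilp, and 0.477, for Col3a1 with Ccdc80. These values describe spots that share their totals and are given without a p-value. The choice itself raises the markers, in part through counting error. To take out that part, the UMIs of every spot were split at random into equal parts. The members were chosen on 1 part and the markers were measured in the other. Of the members, 190 of 209 were then the same, and the ratios lay between 2.81 for Cilp and 4.71 for Col14a1.

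Outside the markers, the connective tissue spots had more summed RNA of the extracellular matrix, of fibroblasts, of complement, of macrophages and, in few members, of fat. They had less of the fast myofibres, although no abundant muscle gene fell by as much as a factor of 2. A gene was measured when it had 200 or more UMIs over the spots used, and called higher at a CPM ratio of 2 or more and lower at 0.5 or less. The 585 higher genes were 6.31% of those measured, and 3 (0.0323%), Gm11967, Rfc4 and Neurl1b, were lower. Those 3 were below the level set for naming genes and are given here because they are so few. The median log2 ratio of all measured genes was 0.17, and 71.2% of them had a ratio above 1. Scaling by edgeR's TMM factors moved that median by -0.26 and DESeq2's size factors by -0.27, which left 312 and 306 genes called higher, so that ratios should be read against this median. Since the members were chosen on RNA of these same spots, the counts by gene group describe the spots and carry no test.

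**Figure D1:**
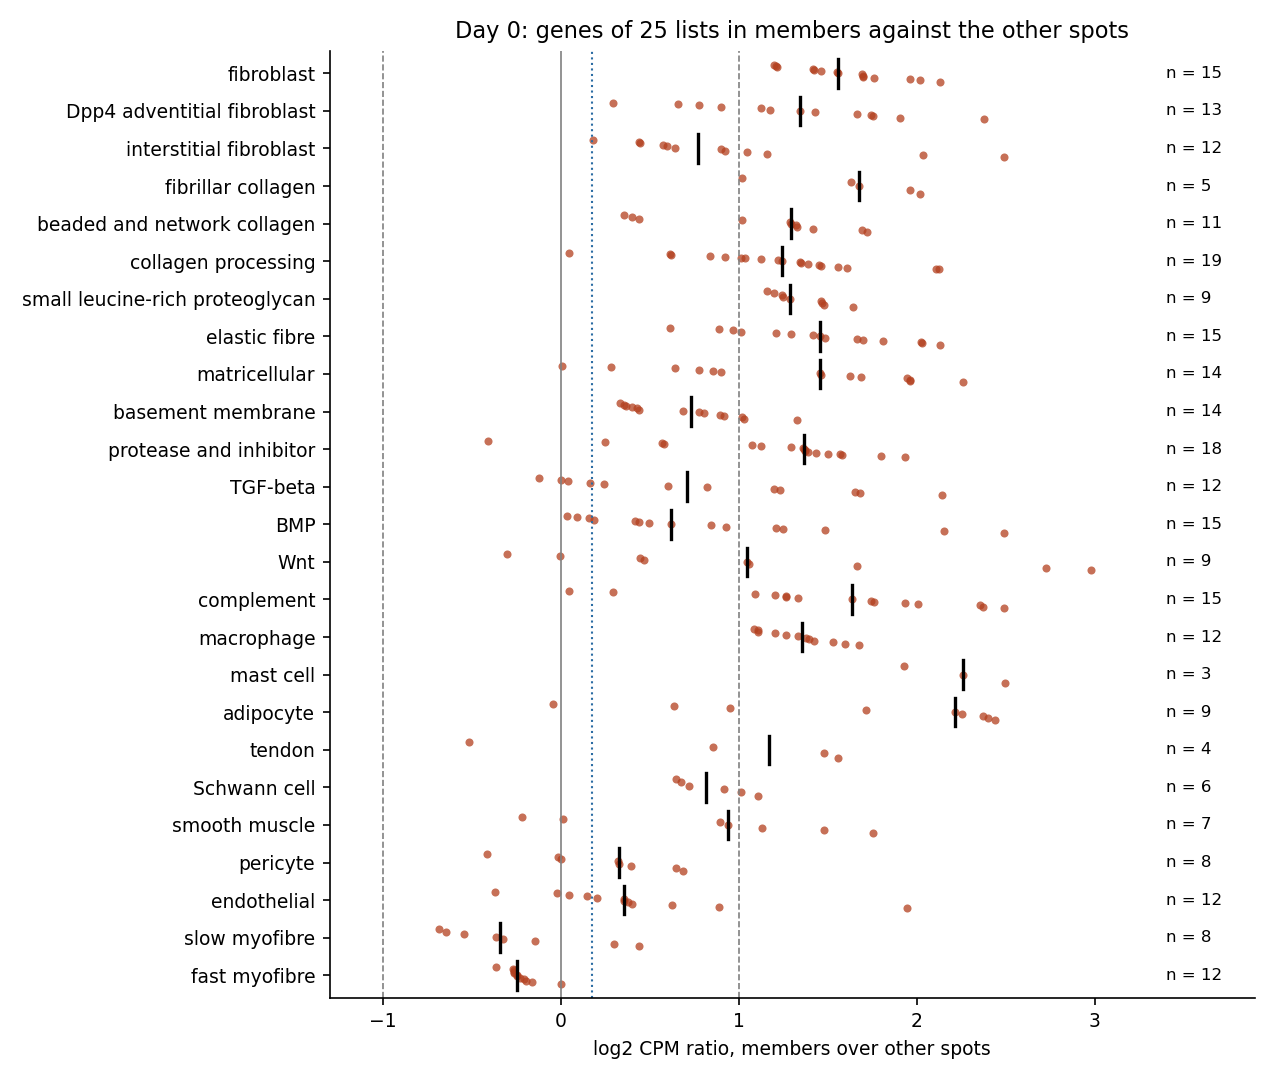
For the gene lists named at the left, points are log2 CPM ratios of the measured genes (n at the right) in members over the other spots of HO-day 0, black bars are list medians, dashed lines mark ratios of 0.5 and 2, and the dotted line is the median of all measured genes, 0.17. The fibroblast median lies at 1.55 and the fast myofibre median at -0.25.

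The label of connective tissue was set beside fibroblast genes that the rule did not name. This is no independent check, because the list was chosen with earlier results of these data known. The list has 16 genes, and the gene that was not measured had a log2 ratio of -0.33 when the minimum was 50 UMIs. Of 15 measured genes of the fibroblast list, 15 were higher, with a median log2 ratio of 1.55. Their summed level was 19564 CPM in members and 5470 CPM in the other spots, and in single members it ran from 6613 over a median of 15902 to 102950 CPM, against 833, 4769 and 47321 in the others. The ranges overlapped widely. Col1a1, a chain of the fibrillar collagen I, had 1067 in the lowest member, 5126 in the median and 48913 in the highest against a median of 1372 in the others, and its summed ratio was 4.06 (4.002 to 4.11). Dcn, the proteoglycan decorin that binds collagen fibrils, was at 1273 CPM against 463 CPM, and Pdgfra, the growth factor receptor that marks mesenchymal progenitors, at 55.1 CPM against 20.6 CPM. Gsn, the actin-severing gelsolin that is abundant in muscle fibroblasts, had a ratio of 3.25 (3.18 to 3.32).

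Of the adventitial fibroblast genes 9 of 13 were higher, and of the interstitial ones 4 of 12, with median log2 ratios of 1.34 and 0.77. Dpp4, the peptidase that marks adventitial progenitors, was at 18.7 CPM in members and 3.61 CPM in the others, and 153 members had none. Cd248, a mesenchymal surface protein, had a ratio of 3.37, and Igfbp6, a binding protein of insulin-like growth factors, 3.35. Sema3c, Cd55, Creb5 and Ly6c1 of the same list stayed below 2. In the interstitial list Penk, Gdf10, Apod and Podn were higher, and the remaining 8 had ratios from 1.13 for Cxcl12, a chemokine, to 1.89 for Crispld2. Of the genes by which the study named its mesenchymal stem cells (MSCs), Pdgfra and Ly6a were higher, and Prrx1, Ly6e and Cxcl12 had ratios of 1.28, 1.59 and 1.13. That list was drawn up by the study on its own cells and is not independent of it.

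All 5 measured fibrillar collagen genes other than Col3a1 were higher, from 2.02 for Col5a3 to 4.06 for Col1a1, and so were all 9 measured small leucine-rich proteoglycans, from 2.23 for Podn to 3.12 for Ogn. Of the elastic fibre genes 12 of 15 were higher, among them Eln, which encodes elastin, at 450 CPM against 110 CPM, Fbln1 and Efemp1. Members varied greatly in Eln, with 46 at 0, a median of 118 and a highest value of 8215 CPM. The 4 measured collagen VI genes Col6a1, Col6a2, Col6a3 and Col6a6, whose products form beaded filaments, had ratios of 2.50, 2.45, 2.49 and 2.44.

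Basement membrane genes, whose products coat every myofibre and vessel, were higher in 3 of 14 cases only. Col4a1 and Col4a2, its main collagen chains, had ratios of 1.28 and 1.32, and the median log2 ratio of the list was 0.73. Lama2, Nid1 and Col18a1 were the 3 that passed. Within the list of beaded and network-forming collagens, 8 of 11 were higher. Of the fibril-associated (FACIT) collagens, Col12a1 and Col16a1 were higher, and Col20a1 and Col22a1, the latter known from the junction of muscle and tendon, had ratios of 1.12 and 1.93.

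Genes for trimming, folding and cross-linking collagen were higher in 14 of 19 cases. Lox, the lysyl oxidase, had a ratio of 4.31, Pcolce2, an enhancer of procollagen trimming, 4.36, Bmp1, a protease that cuts the procollagen end, 2.76, and Serpinh1, the collagen chaperone, 2.18. Plod1, Plod2, Plod3, P4ha1 and P4ha2, hydroxylases of collagen residues, ranged from 1.03 to 1.89 and were not called. Among matricellular genes 8 of 14 were higher, with Thbs2 at 4.78, fibronectin (Fn1) at 3.89 and tenascin X (Tnxb) at 3.09, whereas Ccn1 stood at 1.00. Of proteases and their inhibitors 14 of 18 were higher, including Mmp2 at 2.62 and Mmp3 at 3.83. Timp4, an inhibitor of these proteases, had a ratio of 0.753.

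In the Wnt list Sfrp1, Sfrp2, Sfrp4, Sfrp5 and Dkk2, all secreted Wnt antagonists, were higher, which is 5 of 9 measured, while the ligands Wnt5a, Wnt9a and Wnt11 had ratios of 1.36, 0.995 and 1.38. Sfrp4 had the largest ratio of all named genes, with 68.5 CPM in members and 8.69 CPM in the others, a ratio of 7.88 (6.73 to 9.22). Even so, 109 of the 209 members had no Sfrp4 UMI, the highest had 1272 CPM, and the highest of the other spots 373. Sfrp2 stood at 66.0 CPM against 9.98 CPM, with 138 members at 0.

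In the BMP list 5 of 15 measured genes were higher, namely Gdf10, a member of the family, the antagonists Chrd and Bmper, and the target genes Id2 and Id4. Bmp4, the ligand that the transgene encodes, was at 16.5 CPM against 8.69 CPM, a ratio of 1.90 (1.46 to 2.45), and 154 members had none. Its reads from the transgene and from the native gene cannot be told apart in these counts. The receptors Acvr1, Bmpr1a and Bmpr2 had ratios of 1.41, 1.11 and 1.33, and the target Id1 1.02. In the TGF-beta list Tgfbr2, Tgfbr3, Tgfbi, Fst and Fstl1 were higher, 5 of 12, and the ligands Tgfb1, Tgfb2 and Tgfb3 had ratios of 1.52, 0.919 and 1.77. Of the cartilage and bone genes only Alpl, the alkaline phosphatase, was measured, with a ratio of 1.12. Of insulin-like and other growth factor genes 4 of 12 were higher, and of chemokines and cytokines 6 of 10.

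Of the complement genes 13 of 15 measured were higher, with a median log2 ratio of 1.63. Cfd, which the adipocyte list holds too, gave 2729 of the list's 8977 member UMIs. The summed list stood at 2002 CPM in the members and 653 CPM in the other spots. It stood at 2232 CPM in the spots outside the members that were in the top 10% by the adipocyte list, so its level was not particular to the members. C3, the central component, had a median of 88.5 CPM in members, 54 of them at 0, and a highest value of 1294, against a median of 0 in the others. Its summed ratio was 5.63 (5.12 to 6.18), C2 had 5.11, C4b 3.83 and Serping1, the inhibitor of the first component, 3.38. Cd55 and Cd59a, membrane regulators, had ratios of 1.22 and 1.03.

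All 12 macrophage genes were higher, with a median log2 ratio of 1.36 and a summed level of 818 CPM against 332 CPM. Their ratios ran from 2.12 for Cbr2 to 3.19 for Lyve1, and included Csf1r, the receptor for the macrophage growth factor, at 2.60, and the resident macrophage genes Folr2 at 3.02 and Cd163 at 2.63. The list was seen widely in the whole section, with 8 members and 127 of the 1881 other spots at 0. Spots outside the members that were rich in other tissues also stood above 332 CPM, though below the members. Those in the top 10% by the adipocyte, smooth muscle, Schwann cell and tendon lists had 547, 552, 538 and 404 CPM. Mast cell genes were higher in 3 of 3 measured, Mcpt4, Cma1 and Tpsb2, at a summed 113 CPM against 23.8 CPM, but 146 members had none and 75.9% of the member UMIs lay in 10 spots. The T and NK cell list and the neutrophil list had no measured gene, and Cd3e, Cd3d, Cd3g and Cd8a had 0 UMIs in the members, where 3 UMIs would have been 0.669 CPM.

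Of 12 endothelial genes only Vwf, the von Willebrand factor of larger vessels, was higher, at 3.84 (3.45 to 4.27), with 112 members at 0, while Cdh5, Kdr and Cldn5 had ratios of 0.985, 0.773 and 1.03. Of 8 pericyte genes none was higher, and Rgs5 had a ratio of 0.987. Smooth muscle genes Myh11, Acta2 and Tagln were higher, 3 of 7, and the Schwann cell genes Mbp and Pmp22, 2 of 6. Of the lymphatic endothelial list 2 of 3 measured genes were higher, at a summed 70.5 CPM against 33.2 CPM with 66 members at 0, and they include Lyve1, which the macrophage list holds too. The only measured gene of the perineurium list, the glucose transporter Slc2a1, had a ratio of 2.38. In the tendon list Tnmd and Fmod were higher, Thbs4 had 1.81 and Scx 0.697, and 65.2% of the list's member UMIs lay in 10 spots.

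Fast myofibre genes were lower by a small amount and stayed abundant. The 12 fast myofibre genes had a median log2 ratio of -0.25 and a summed level of 203206 CPM in members against 239378 CPM, and none was called lower. Single members ran from 63734 to 288386 CPM and the other spots from 108568 to 346056, so that no member was without myofibre transcripts, and whether these came from fibres under the spot was not tested. Myh4, the fast IIb myosin heavy chain, was at 0.832 (0.827 to 0.836), Myh2 at 1.00 and Ckm, the muscle creatine kinase, at 0.829. In a mixed spot, fewer cells of a type and less RNA per cell cannot be told apart. The 8 slow myofibre genes had a median of -0.35 by summed counts. The median member, however, had 363 CPM of the slow list against 212 CPM in the median other spot. Single spots reached 4936 CPM in the members and 25525 CPM in the others. The satellite cell, neuromuscular junction, immediate early and cell cycle lists had no gene called higher.

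**Figure D2:**
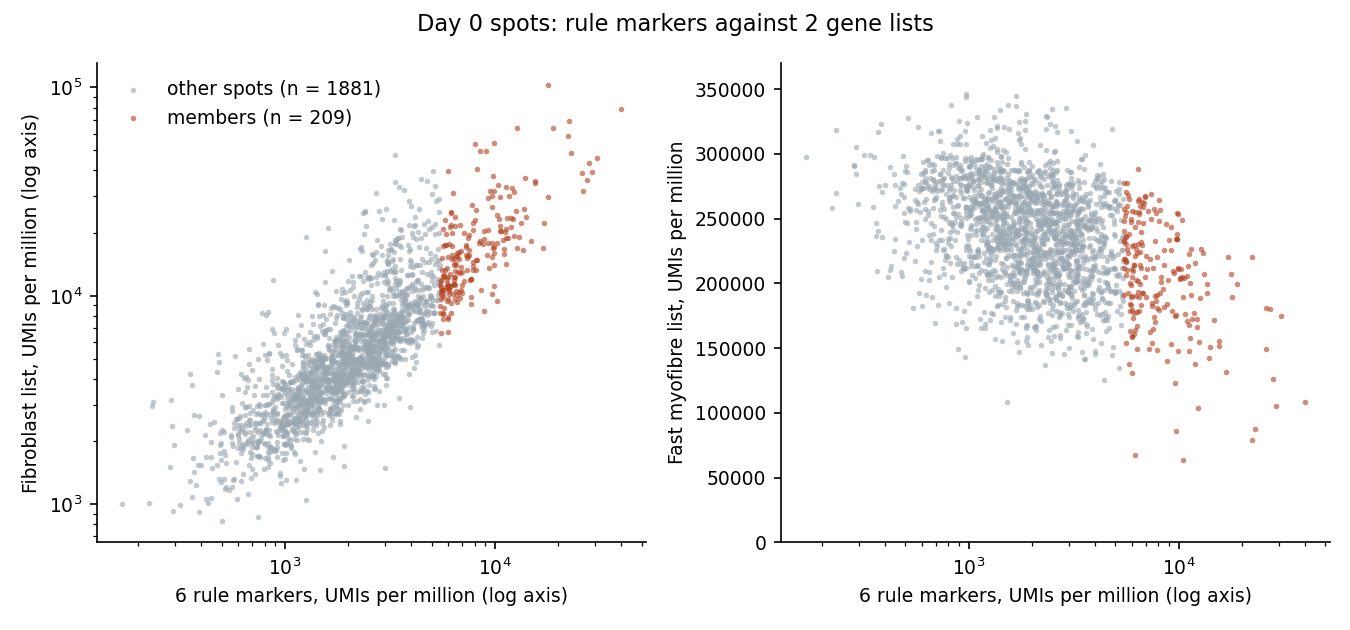
Each point is a spot of the HO-day 0 section, with the 209 members and 1881 other spots in different colours, and the horizontal axis of both panels gives the 6 rule markers in CPM of the spot (UMIs per 1000000, log axis). The vertical axes give the summed fibroblast list (log axis), from 6613 to 102950 in members, and the summed fast myofibre list (linear axis), from 63734 to 288386 in members, and both clouds run on across the threshold with no gap.

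Among 2229 genes with 50 CPM or more in either group of spots, 178 were higher and none lower. The 15 with the largest ratios were Sfrp4, Sfrp2, Hp, Cpz, C3, Retn, Cfd, Adipoq, Scd1, Fbln1, Lox, Plvap, Penk, Eln and Col1a1, with log2 ratios from 2.98 down to 2.02. Besides the matrix and Wnt genes described before, Cpz, a secreted carboxypeptidase, stood at 54.4 CPM against 9.30 CPM, Plvap, of fenestrated endothelium, at 113 CPM against 27.5 CPM, and Penk, the enkephalin precursor, at 74.7 CPM against 18.2 CPM. Plvap was at 0 in 112 members, and 56.5% of its member UMIs lay in 10 spots. The 10 smallest ratios, none of them called, belonged to Myh7 at a log2 ratio of -0.69, Tnnc1, Perm1, Tnnt1, Ankrd9, B230312C02Rik, Coro6, Fam131a, 5430431A17Rik and Gfm1 at -0.46. Myh7, Tnnc1 and Tnnt1 encode slow-fibre contractile proteins and Perm1 a regulator of muscle mitochondria. The direction of the slow-fibre genes depended on the threshold, since at the 80th percentile of the score Myh7, Tnnc1 and Tnnt1 had log2 ratios of 0.44, 0.49 and 0.46.

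Of those 15, Hp, Retn, Cfd, Adipoq and Scd1 are genes for which fat is a known source, and their high values lay in few members. Hp, which encodes haptoglobin, was at 0 in 177 of 209 members, and 87.8% of its member UMIs came from 10 spots. Cfd, which encodes adipsin, had a median of 0 and a highest value of 19666 CPM in members, with 77.8% in 10 spots. The adipocyte list had 6 of 9 measured genes higher with a median log2 ratio of 2.21, at a summed 2006 CPM against 962 CPM. Of its member UMIs, 49.9% lay in 10 members. The median member had 697 CPM of this list and the median other spot 708 CPM, so the typical member was not richer in fat RNA.

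Spots rich in fat were therefore taken out of both groups. Of the members, 41 (19.6%) lay in the top 10% of the 2090 spots by the adipocyte list, and without that top 10% there were 168 members and 1713 other spots. Then 430 genes were higher, of which 408 were among the 585, while the median of all genes was 0.11. Hp, Cfd and Adipoq now had log2 ratios of -0.90, -0.28 and -0.50, Retn 0.11 and Scd1 0.40, and 0 of 9 adipocyte genes were higher. Plvap and Eln went down from 2.04 and 2.03 to 1.08 and 1.48. The remaining genes of the 15 had log2 ratios from 1.93 for Penk to 3.16 for Sfrp4. The fibroblast list had 14 of 15 higher with a median of 1.62, the complement list 11 of 15 with 1.19 and the macrophage list 10 of 12 with 1.18. Vessel and nerve genes lost calls, to 0 of 12 endothelial, 0 of 6 Schwann cell and 2 of 7 smooth muscle genes, and the interstitial list had 3 of 12.

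The members coincided with other tissue-rich spots to differing degrees. They made up 57.9% of the top 10% by the fibroblast list, 55.5% by the adventitial list, 31.6% by the macrophage list and 30.6% by the interstitial list, and since each top 10% also has 209 spots these are equally shares of the members. Members are 10% of all spots used. They made up 24.9% of the top 10% by lymphatic endothelial, 23.0% by dendritic cell and 17.2% by endothelial genes, 19.6% by adipocyte, 19.1% by Schwann cell, 18.7% by smooth muscle, 15.8% by tendon, 16.3% by mast cell and 0.478% by fast myofibre genes. In all, 104 members (49.8%) were in none of the adipocyte, tendon, smooth muscle and Schwann cell top 10% groups, against 70.2% of the other spots. Spots rich in these tissues but outside the members had lower summed fibroblast genes than the 19564 CPM of the members. They stood at 8020 CPM for adipocyte, 8338 CPM for smooth muscle, 7534 CPM for tendon and 7168 CPM for Schwann cell. The rule itself sets part of that gap. Tendon spots outside the members had 266 CPM of Cilp and 129 CPM of FACIT collagens, against 217 and 90.5 CPM in the members. In the adipocyte, smooth muscle and Schwann cell spots both were lower than in the members. The interstitial list stood at 1612 CPM in the Schwann cell spots. It stood at 1341, 1207 and 1035 CPM in adipocyte, smooth muscle and tendon spots, against 1654 CPM in the members. Of the members, 26 were in both the adipocyte and the macrophage top 10%.

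The section graded into the members without a step. Ordered by score into 10 parts of 209 spots, the fibroblast list went from 2189 CPM in the lowest part to 10968 CPM in the ninth and 19564 CPM in the members, and the macrophage list from 158 to 565 and 818 CPM. Fast myofibre genes went from 260886 CPM to 223598 and 203206 CPM. The slow myofibre list did not follow the order, with 1135 CPM in the ninth part and 620 CPM in the members.

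**Figure D3:**
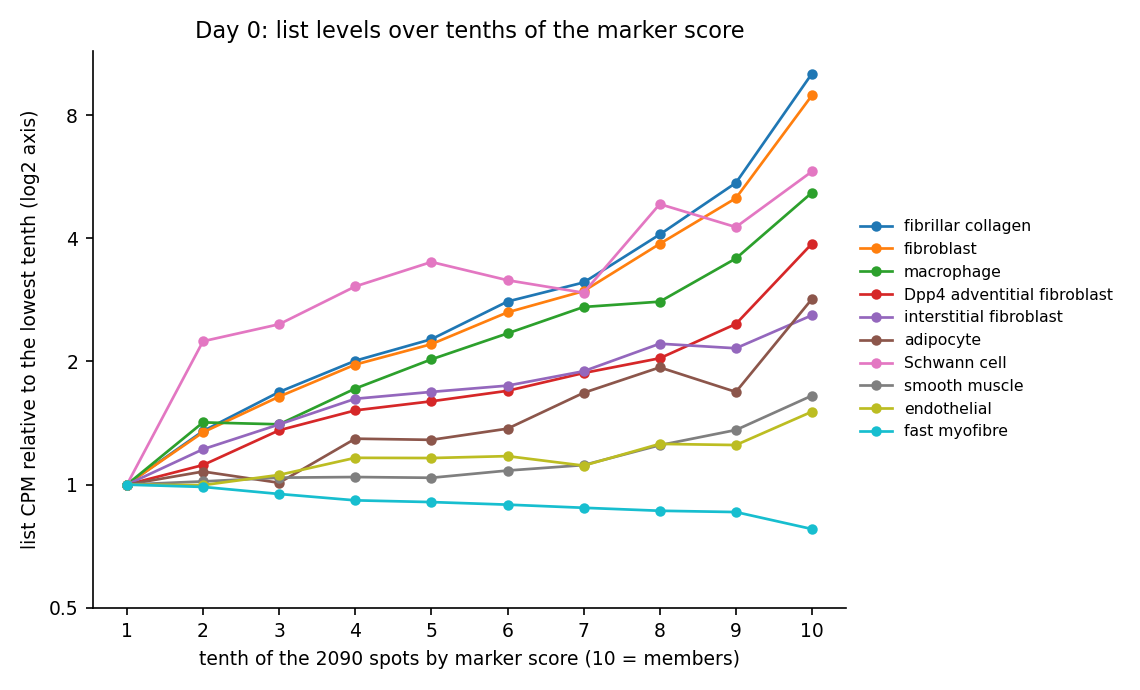
The spots of HO-day 0 are ordered by the marker score into 10 parts of 209, the last being the members, and each line gives a list's summed CPM over that of the lowest part on a log2 axis. Fibroblast genes reach 8.94 times and macrophage genes 5.17 times the lowest part, and fast myofibre genes 0.779 times.

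Within the members, fibroblast genes went up along the score and tendon and mast cell genes did not follow its order. In 4 groups ordered from the lowest to the highest score (53, 52, 52 and 52 spots), the fibroblast list stood at 12726, 14335, 20799 and 32460 CPM, the adventitial list at 1152, 1343, 1582 and 2266 CPM and the fibrillar collagens at 8585, 9628, 15077 and 24411 CPM. Fast myofibre genes stood at 214521, 218104, 202306 and 173675 CPM. Tendon genes stood at 304, 230, 79.6 and 122 CPM, and mast cell genes at 98.8, 41.2, 254 and 75.5 CPM. The highest-scoring members were thus highest in fibroblast and lowest in fast myofibre RNA, although fast myofibre genes were slightly higher in the second group than in the first.

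The genes that went with each marker were compared within the members. For each marker, the 53 members with the highest level were set against the other 156, and the 4 genes with the largest ratio were read off. Members high in Cilp were rich in tendon genes. Thbs4, a matrix protein of tendon and muscle junction, was at 338 CPM against 31.1 CPM, a ratio of 10.9, with UMIs in 38 of the 53, Fmod, the proteoglycan fibromodulin, had 10.2, Col8a1 5.69 and Myl4, an atrial and embryonic myosin light chain, 4.80. The tendon list as a whole was 9.90 times higher (8.35 to 11.8) and the adipocyte list 0.45 times. For Fmod, 84.1% of the UMIs of these 53 spots came from 5 spots.

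Members high in Pi16 had more Efemp1, an elastic fibre protein, at 4.48, and Sfrp4 at 4.33, beside the slow-fibre genes Tnnc1 at 3.95 and Myh7 at 3.84. The adventitial list was 1.72 times and the slow myofibre list 2.41 times higher there, while the adipocyte list was at 0.54 times. Members high in Col14a1 had more Sfrp2 at 5.65, Gdf10 at 4.35 and the mast cell proteases Cma1 at 4.58 and Mcpt4 at 3.74, but 91.8% and 93.4% of the Cma1 and Mcpt4 UMIs of these 53 spots lay in 5.

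Members high in Col3a1 led with Clec11a, a secreted growth factor of bone marrow stroma, at 4.54, followed by Gdf10 at 3.97, the kinase Dapk1 at 3.35 and Sfrp2 at 3.03. Those high in Postn had Sfrp2 at 5.43, Hp at 3.89, the fat droplet protein Cidec at 3.81 and Fmod at 3.79, with 91.5% of Hp UMIs in 5 spots. Those high in Ccdc80 had Sfrp2 at 5.90, Sfrp4 at 4.95, Retnla, a secreted protein of fat and macrophages, at 3.88 and Lrg1, a secreted glycoprotein, at 3.80. The adipocyte list was 2.04 times higher in the Postn-high members and 1.94 times in the Ccdc80-high ones. Sfrp2 was among the 4 leading genes for Col14a1, Col3a1, Postn and Ccdc80, and for neither Pi16 nor Cilp, but 66.1%, 81.9%, 62.4% and 61.1% of its UMIs in those 53 members came from 5 spots. Such concentration also held for Gdf10 (72.7% in the Col14a1-high and 71.4% in the Col3a1-high members), Cidec (88.4%), Fmod in the Postn-high members (90.2%) and Lrg1 (79.1%). In the Pi16-high members 5 spots held 56.0% of Tnnc1 and 53.7% of Myh7 UMIs. In the Cilp-high members they held 54.9% of Thbs4 and 57.4% of Col8a1 UMIs. Retnla had 54.0% and Clec11a 50%, while Efemp1, Sfrp4, Dapk1 and Myl4 had lower shares, from 30% to 45.9%. The members high in 1 marker were partly high in others, as Pi16, Cilp, Postn and Col3a1 were 1.88, 1.93, 1.75 and 1.68 times higher in those high in Ccdc80.

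**Figure D4:**
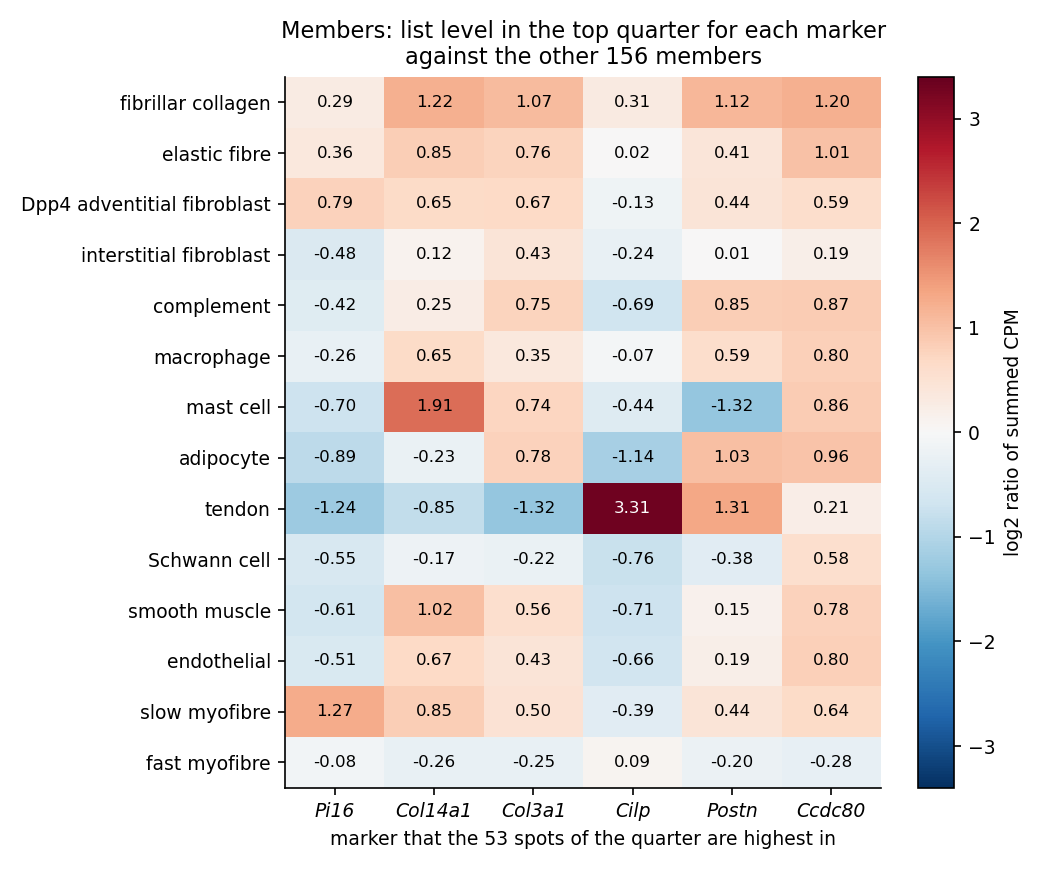
Each cell of the grid gives, as colour and number, the log2 ratio of a gene list's summed CPM in the 53 members highest in a marker (columns) over the other 156 members. The tendon list is at 3.31 in the members high in Cilp, the mast cell list at 1.91 in those high in Col14a1 and the slow myofibre list at 1.27 in those high in Pi16.

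The same rule was then applied to each injured section on its own, to see what the highest-scoring spots held there. It took 216, 302 and 295 spots on days 1, 3 and 7, and each day is compared with its own remaining spots. The day 0 threshold itself was passed by 3, 370 and 871 spots on days 1, 3 and 7 (0.139%, 12.3% and 29.5%). Day 1 was also shallower, its chosen spots having a median of 5418 UMIs against 24908 on day 3 and 18962 on day 7. With 1 section a day, day, section and slide position cannot be told apart, and no difference between days was tested.

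Of the 585 genes higher in the members at day 0, 305 were measured at day 1 and 154 of these (50.5%) were higher there, against 5.5% of all measured genes. The count on day 3 was 111 of 553 (20.1%) against 2.72%, and that on day 7 was 316 of 578 (54.7%) against 20%. Fibrillar collagens were higher in the chosen spots on every day, in 5 of 5, 5 of 5, 6 of 6 and 9 of 9 measured genes for days 0, 1, 3 and 7, and fibroblast genes in 15 of 15, 12 of 12, 6 of 15 and 8 of 15. Col1a1 had ratios of 4.06, 6.66, 3.00 and 4.68.

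The other groups differed more from day to day. Macrophage genes, higher in 12 of 12 at day 0, were higher in 0 of 10, 0 of 12 and 0 of 12 at days 1, 3 and 7. Fewer calls did not mean less macrophage RNA in the chosen spots. The summed list stood there at 818, 876, 4999 and 1834 CPM on days 0, 1, 3 and 7. In the remaining spots of each section it stood at 332, 835, 3472 and 1236 CPM. Complement genes were higher in 13 of 15, 6 of 12, 1 of 15 and 3 of 15, and C3 had ratios of 5.63, 6.34, 0.96 and 1.56. The summed complement list stood at 2002, 2494, 4454 and 2907 CPM in the chosen spots. It stood at 653, 718, 3216 and 1804 CPM in the remaining spots. Adipocyte genes were higher in 6 of 9, 6 of 6, 0 of 7 and 0 of 8, and 5 of the 7 on day 3 were lower. Pi16 had ratios of 3.95, 6.81, 1.28 and 1.84, below a factor of 2 on days 3 and 7.

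Cartilage and bone genes were higher in 0 of 1, 0 of 1, 0 of 4 and 8 of 9 measured genes at days 0, 1, 3 and 7, the single gene at day 1 being called lower at a log2 ratio of -1.16, and cell cycle genes in 0 of 11, 0 of 6, 1 of 14 and 13 of 14. The median log2 ratio of fast myofibre genes was -0.25, -0.32, -1.54 and -1.63, with 0, 0, 9 and 11 of 12 called lower. The chosen spots of days 0 and 1 thus kept most of their section's level of fast myofibre RNA, and those of days 3 and 7 did not. The slow myofibre list had summed ratios of 0.866, 0.915, 1.35 and 1.06 on days 0, 1, 3 and 7.

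**Figure D5:**
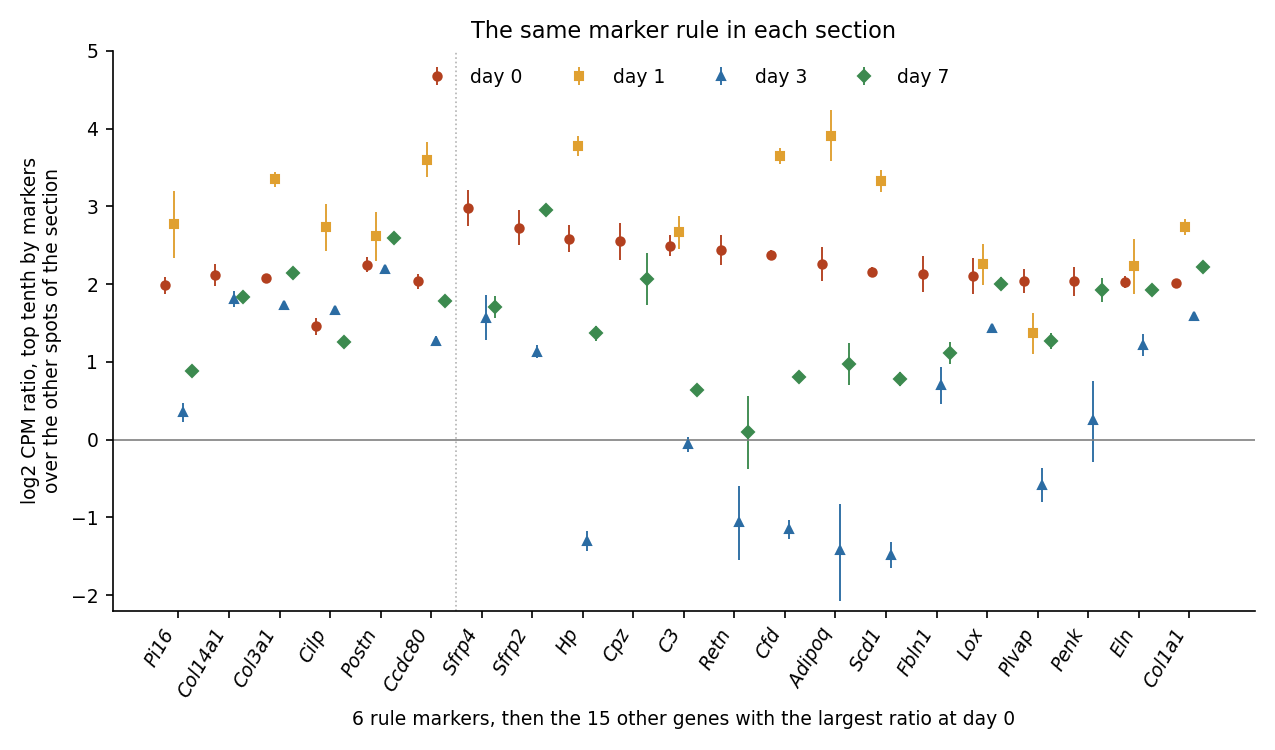
The rule was applied to each of the 4 sections, and points give the log2 CPM ratio of a gene in the chosen spots over the other spots of that section, with 95% counting intervals, for the 6 rule markers and the 15 genes with the largest ratio at day 0 (genes under 200 UMIs in a section are left out). At day 3 Hp, Retn, Cfd, Adipoq and Scd1 lie between -1.05 and -1.48, whereas Col1a1 is above 0 on every day.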

How the data were processed

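Spatial transcriptomes of 4 tibial muscle sections were used, 1 per day. The deposited matrices hold UMI counts per gene and spot over tissue, not normalized, that the authors made with Space Ranger (1.2.0 in the file headers; the labels also describe Cell Ranger 5.0.0 with STAR) against build mm10 according to the submitters' processing notes. Strand handling of genes that overlap is not given in the sources used here, so reads of overlapping genes may be shared.

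The members, lists and naming rule were chosen with earlier results of these data known. Spots under 2000 UMIs were left out, and all 32285 features were kept. No doublet caller was run, since spots mix cells. UMIs were summed over members and over the other spots, divided by the group total and given as CPM. Ratios carry exact binomial and CPM values exact Poisson 95% counting intervals, where UMIs are taken as independent. Genes under 200 UMIs were not called. The 6 markers were left out of all counts. Lists, 43 with 470 symbols, of which 469 matched a single feature, were matched by symbol. Where a group had under 3 UMIs, 3 were used. Equal-depth shares are the expected shares at 2000 UMIs per spot.

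Genes were named as the 6 markers, the 15 largest and 10 smallest ratios among genes with 50 CPM or more in either group, the 4 largest ratios in the 53 members highest in each marker, and list genes. Alternatives were other percentiles (95, 80), scores leaving out each marker in turn, mitochondrial, haemoglobin and myofibre genes left out of the total behind the CPM, TMM (edgeR 4.0.16), DESeq2 1.42.0 size factors, mean spot CPM, other UMI minima, comparison with spots below the median score, and a random split of UMIs. The calculation was tested on simulated data. Python 3.11.15, numpy 2.4.6, pandas 2.3.3, scipy 1.17.1 and R 4.3.3 were used.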

Additional observations from a re-analysis of the deposited data

Results flagged for a closer look

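The 5 genes with fat as a known source that were higher in the connective tissue spots of uninjured muscle had ratios on the other side of 1 in the spots chosen by the same rule at day 3. The log2 ratios at day 3 were -1.31 for Hp, -1.05 for Retn, -1.16 for Cfd, -1.42 for Adipoq and -1.48 for Scd1, against 2.58, 2.44, 2.37, 2.25 and 2.16 at day 0. With 1 section per day, the difference was not tested.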

How the results depend on the processing

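The 585 genes called higher became 312 with TMM, 306 with DESeq2 size factors, 1106 with a minimum of 50 UMIs per gene, 169 with 1000 and 6368 with 1, where a gene with under 3 UMIs in each group takes the ratio of the group totals, and 938 against spots below the median score. Fibroblast genes called higher stayed within a factor of 1.5 of their count, and the fast myofibre median stayed negative, under every alternative run. Fast myofibre genes called lower stayed at 0. Their lowest log2 ratio was -0.37 in the main setting, far from a ratio of 0.5, so that this count had little room to change. The 3 genes called lower became 34 at the 95th and 1 at the 80th percentile, 6 without Col3a1 in the score, 6 without Cilp, 5 without Postn, 6 with mitochondrial, haemoglobin and myofibre genes left out of the total, 12 with TMM, 14 with DESeq2, 10 with mean spot CPM, 64, 0 and 64 with minima of 50, 1000 and 1 UMIs, 5 against spots below the median score, and 21 with the split UMIs. Alternatives chosen after seeing the data left out the spots in the top 10% of a list, and gave 12 lower genes without adipocyte, 6 without tendon and 10 without macrophage spots. Without the adipocyte spots, Hp at -0.90, Cfd at -0.28 and Adipoq at -0.50 reversed. At the 80th percentile, Myh7 at 0.44, Tnnc1 at 0.49 and Tnnt1 at 0.46 also turned in sign, though they were never called. With the day 0 threshold, 281 of 305 genes were higher at day 1, from only 3 spots and beside 88.8% of all genes. With mitochondrial, haemoglobin and myofibre genes left out of the total, 447 genes were higher at day 0. Of those that were also measured on the later days, 55 were higher at day 3 and 164 at day 7. In the main setting, 2.72% and 20% of all measured genes were higher on those days. The overlaps were also taken at the top 5% and top 20% of both scores, where the chosen spots are 5% and 20% of all spots used. They were 5.71% and 26.3% for tendon and 10.5% and 26.8% for adipocyte. For Schwann cell they were 7.62% and 31.6%, and for smooth muscle 16.2% and 27.0%. The tendon overlap at the top 5% was thus close to the share of all spots. Shares of members with a UMI without thinning were 68.9% for Pi16, 82.3% for Col14a1, 67.0% for Cilp, 91.4% for Postn and 89.95% for Ccdc80. Of the 585 genes, 412 were also called with the score without Col3a1. The cause of these shifts was not tested. Lists that rest on few UMIs in few spots, such as mast cell and tendon, are limited by depth and by 1 section. No paired analysis was possible because each group has 1 section.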
